A study of Mus musculus with 16 samples.

Results

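The cytosolic ribosomal protein genes encode the protein part of the ribosomes that translate messenger RNA in the cytosol. They were taken here as the protein-coding genes present in both deposited count tables whose symbol is Rpl or Rps followed by a digit, with Rpsa, Rplp0, Rplp1 and Rplp2 added. The rule leaves out ribosomal S6 kinases, Rps19bp1, copies named -ps and, by name, Rps7. The rule gave 84 of the 49585 genes in the tables. By role, 43 encode proteins of the large 60S subunit, 30 proteins of the small 40S subunit and 3 proteins of the stalk (Rplp0, Rplp1 and Rplp2). The other 8 are paralogs, genes that each resemble another member. The rule uses gene symbols and gene types and no measured value, but it was set with earlier results of these data known.

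The libraries were made from total RNA of neutrophils, isolated by cell sorting per the series' design text, from bones of C57BL/6 mice aged 8 to 12 weeks. P2KO stands for mice labelled Vav:cre-PHD2f/f, in which Cre recombinase is meant to delete PHD2, the oxygen-dependent enzyme encoded by Egln1 that marks HIF proteins for degradation. P2H2KO stands for mice labelled Vav:cre-PHD2/HIF2ff/ff, in which HIF2α, encoded by Epas1, is to be deleted as well. P2WT and P2H2WT are the controls of each line, labelled wild type, and the labels do not say whether they carry Cre or floxed alleles. The Vav promoter drives Cre in blood-forming cells, so the deletion is not limited to neutrophils. Each group had 4 libraries, named by the replicate number of their titles.

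The 16 libraries held 23450746 to 28601284 counts each, of which 600464 to 882277 fell on the 84 genes. The markers of neutrophils were present in all 16 libraries, with 15 of 15 marker genes detected and a summed level of 33293 to 86991 CPM (counts relative to library sizes scaled by the TMM method). All 13 erythroid marker genes were detected too, at a summed 27828 to 56687 CPM, and the precursor markers Elane and Mpo reached 373 to 692 and 1286 to 2280 CPM. The counts of the genes labelled as deleted cover whole genes and so do not check the labels: Egln1 had 49.5 ± 6.39 CPM (mean ± SD over 4 libraries) in P2KO and 48.6 ± 2.21 in P2WT, and Epas1 had 5.65 ± 2.17 in P2H2KO and 3.55 ± 1.02 in P2H2WT. The glycolytic enzyme gene Pfkl was at 96.96 ± 4.67 CPM in P2KO against 58.2 ± 2.56 in P2WT, and at 108 ± 9.21 in P2H2KO against 57.3 ± 2.67 in P2H2WT.

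A ribosome is assembled from ribosomal RNA and 1 copy of most ribosomal proteins, so the genes for these proteins are usually expressed in step. Their messenger RNAs start with a C followed by further pyrimidines, the 5′ terminal oligopyrimidine (TOP) motif, through which the kinase mTOR and the RNA-binding protein LARP1 regulate their translation. Hypoxia and HIF signalling are known to act on mTOR and on protein synthesis. In the bone marrow, defects of single members such as Rps19, Rpl5 and Rpl11 are known for a failure of red cell formation, and Rpl5 and Rpl11 also bind the p53 regulator MDM2. Neutrophil precursors make much protein for their granules while they divide, and ribosome content falls as the cells mature.

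The start regions of these genes are shown because a pyrimidine stretch at the start site is a feature these genes are known for. RefSeq promoter windows of GRCm38.p6, from 250 bases before to 50 bases after the annotated start, were matched by symbol for 64 of the 84 members. The longest run of C and T on the gene's own strand was searched within 50 bases either side of the start, so a run at the edge of that stretch can be longer than printed. Each line gives 30 bases, 5′ to 3′, with that run in capitals.
Rpl7a (chr2:26910789-26910818, + strand): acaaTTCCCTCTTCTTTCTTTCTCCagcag
Rpl27a (chr7:109519186-109519215, + strand): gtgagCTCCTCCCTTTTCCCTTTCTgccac
Rpl34 (chr3:130730330-130730359, - strand): acccgCCCCTTCCTTTTCCTCTTCCgggga
Rpl11 (chr4:136053357-136053386, - strand): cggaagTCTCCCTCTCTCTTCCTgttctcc
Rpl15 (chr14:18270967-18270996, - strand): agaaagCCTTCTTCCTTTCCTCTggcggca
Rps10 (chr17:27635226-27635255, - strand): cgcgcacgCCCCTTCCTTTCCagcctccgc
Rps18 (chr17:33955647-33955676, - strand): tcacttccgCTCTCTCTTCCacaggaggcc
Rps27 (chr3:90213631-90213660, - strand): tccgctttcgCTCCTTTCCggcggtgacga
Rps6 (chr4:86857349-86857378, - strand): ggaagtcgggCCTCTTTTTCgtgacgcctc
Rplp2 (chr7:141447636-141447665, + strand): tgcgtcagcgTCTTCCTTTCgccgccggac
The run was 21 bases long in Rpl7a, 20 in Rpl27a and Rpl34, 17 in Rpl11 and Rpl15, 13 in Rps10, 11 in Rps18, 10 in Rps6 and Rplp2 and 9 in Rps27. In 52 of the 64 members (81.25%) it reached at least 8 bases, and 39.27% of the 27025 genes with promoter windows had such a run. The run need not begin at the annotated start. Relative to it, the run began at -1 in Rps6 and -2 in Rps18, but at -14 in Rpl7a, 14 in Rpl11 and -47 in Rps3. Its length therefore does not measure the TOP motif. The median longest run was 12.5 bases in 32 large subunit genes, 10 in 22 small subunit genes and 9 in the 8 paralogs. Members with a short run are shown for contrast.
Rplp0 (chr5:115559467-115559496, + strand): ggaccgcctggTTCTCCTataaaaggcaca
Rps4x (chrX:102189342-102189371, - strand): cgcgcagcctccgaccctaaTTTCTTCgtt
Rps3 (chr7:99483739-99483768, - strand): cgcaaaacttcaTTTCCCatgcaaaacttc
Rps28 (chr17:33824566-33824595, - strand): ctgtcccgaggaTTCCTgggtaccgcgtgc
Rpl7l1 (chr17:46782670-46782699, - strand): gtcgaggcgggCCTCTCTaccccgcccggt
Rpl10l (chr12:66284428-66284457, - strand): cagtctctatgaTTCCCgcaaggcttgatg
Their longest runs were 7 bases in Rplp0, Rps4x and Rpl7l1, 6 in Rps3 and 5 in Rps28 and Rpl10l. Over the whole window and on both strands, CGGAAG, a sequence of the kind bound by ETS family factors, was found in 42 of the 64 members (65.6%) against 18.8% of all genes in the table. ACGTG, the core letters of the hypoxia response element, was found in 20 of 64 (31.25%) against 21.8% of all genes. CACGTG, the E-box bound by Myc, which contains ACGTG, was found in 6 of 64 (9.4%) against 8.1%. Such matches describe letters in a window and not binding.

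The members spanned a wide range of levels, also per length of transcript. Levels were divided by the length of the principal transcript in GENCODE M21 and averaged over the 16 libraries. The highest level was that of a stalk gene: Rplp1 (chromosome 9, 61913284 to 61914542, minus strand; coordinates are those of GENCODE M21 on GRCm38) was at 1562 CPM per kilobase. The other stalk genes were at 1023 (Rplp0) and 449 (Rplp2). The stalk proteins form the flexible arm of the large subunit that recruits elongation factors. Of the small subunit genes, Rps12 was at 1080.2 and Rps15 at 991 CPM per kilobase, and the highest large subunit gene was Rpl8 at 952. Medians were 523 CPM per kilobase for the 30 small subunit genes and 326 for the 43 large subunit genes. Among the 75 subunit and stalk genes with at least 1 CPM the median was 382 CPM per kilobase, and 48 of them lay within 2-fold of it. The lowest of these were Rpl13a at 40.01, Rps15a at 54.6, Rpl15 at 74.02 and Rps20 at 82.97 CPM per kilobase. Their place depends on the length used. The principal transcripts taken for Rps15a, Rpl15 and Rps20 were 5179, 1922 and 3706 bases long, and that of Rpl13a 1047. Without division by length, Rps15a was at 283 CPM, Rpl15 at 142, Rps20 at 307 and Rpl13a at 41.9. The highest of the 75 was 39.0 times the lowest, and 78.8 times when lengths were summed over the exons of all isoforms.

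**Figure D1:**
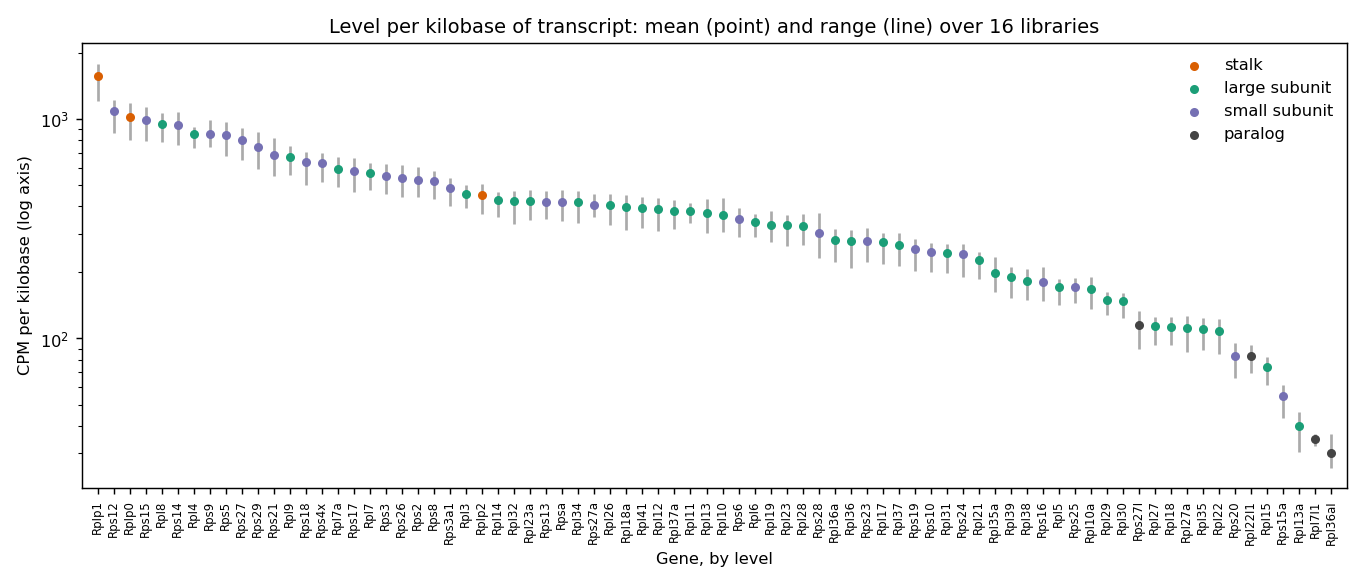
Mean level per kilobase of principal transcript (log axis) of 78 of the 79 members with at least 1 CPM, with the range over 16 libraries as a line and the role as a colour. Rplp1 stands highest at 1562 CPM per kilobase, and the paralogs Rpl7l1 and Rpl36al lowest at 34.9 and 29.995.

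Genes with a known role in disease or signalling lay across this range. Rps3, a small subunit protein at the entry of the messenger RNA, was at 551 CPM per kilobase, and Rpsa, also known as the laminin receptor, at 419. Rps6, the main phosphorylated protein of the ribosome and a target of S6 kinases, was at 348. Rps19 was at 256, Rpl11 at 379 and Rpl5 at 171; Rpl5 and Rpl11 join the ribosome together with the 5S ribosomal RNA. The 4 members on chromosome X were at 629 (Rps4x), 366 (Rpl10), 280.2 (Rpl36a) and 190.2 (Rpl39).

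The counts of 4 members were near 0. Rpl24 (chromosome 16, 55966275 to 55971435, plus strand), which encodes a large subunit protein, had 0 to 5 counts in any library and 35 in all, a level of 0.126 CPM per kilobase. A gene on the same strand, Gm28037, covers 47.0% of its exon bases and had 0 counts in all libraries, and how the counting treated reads shared by both is not given in the sources used here. Rpl10l, a paralog of Rpl10 known from the testis, had 0 counts in all 16 libraries. The paralogs Rpl39l and Rps27rt had 85 and 71 counts in all. These 4 genes did not pass the filter on low counts in any comparison, which left 80 members for testing.

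The paralogs were below the genes they resemble. Rpl3l, known from skeletal and heart muscle, had 186 counts in all libraries and 0.242 to 0.948 CPM, whereas Rpl3 was at 529 to 676 CPM. Rpl7l1, a nucleolar relative of Rpl7, was at 34.9 CPM per kilobase against 565 for Rpl7. Per kilobase of principal transcript, Rpl22l1 was the closest to its partner, at 82.9 CPM per kilobase against 108 for Rpl22. Rps27l, a p53 target, was at 115 against 801 for Rps27, and Rpl36al at 29.995 against 280.2 for Rpl36a. This order depends on the lengths used. Without division by length, Rpl36al was closer to its partner, at a mean of 38.3 CPM against 135 for Rpl36a. Rpl22l1 was then at 45.7 CPM against 222 for Rpl22. With exon lengths of all isoforms, Rpl36al was also closer, at 28.3 against 81.8 CPM per kilobase, with Rpl22l1 at 22.997 against 76.3. Near-identical copies elsewhere in the genome can take or give reads: 78 of the 84 members had at least 1 annotated copy of 95% identity or more over at least 100 bases, 522 copies in all. Those copies held 81327 counts, 0.675% of the sum of members and copies.

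P2KO against P2WT compares mice labelled as lacking PHD2 alone with the controls of their line. Values by library are given in ascending replicate number, which is 1, 5, 6 and 9 for P2KO, 3, 4, 7 and 10 for P2WT, 11, 12, 15 and 17 for P2H2KO, and 13, 14, 16 and 18 for P2H2WT. No member passed the test. With edgeR's quasi-likelihood test and Benjamini-Hochberg adjustment over 13734 genes, 0 of 80 members had an adjusted p under 0.05, where 0.0437% of all genes tested did, and the same count was 0 with DESeq2. No member had an unadjusted p under 0.05 either (3.49% of all genes), and no member had groups that did not overlap (0.859% of all genes higher and 1.39% lower). The estimates were small: 70 of 80 were below 0 (42.2% of all genes), with a median log2 fold change of -0.044 against 0.020 over all genes. The medians were -0.044 for the large subunit, -0.049 for the small subunit and -0.040 for the stalk genes, and 0.024 for the 5 tested paralogs.

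This lean towards lower values rested on 1 library. Without P2KO replicate 6, 59 of 80 estimates were above 0 and the median was 0.015. Over all genes in that fit the median was also 0.015, with 46.4% below 0. The median of the members was -0.079 without P2KO replicate 1 and -0.022 without P2WT replicate 7. The 95% interval of the log2 fold change lay within ±0.3 for 78 of the 80 members, the exceptions being Rpl13a and the sparse Rpl3l.

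Rps28, of the small subunit, was among the 3 members with the smallest p and an estimate below 0. Its levels were 134, 123, 102 and 117 CPM in P2KO, 124, 126, 134 and 124 in P2WT, 141, 138, 144 and 138 in P2H2KO and 146, 137, 163 and 125 in P2H2WT. P2KO replicate 6 was lowest and P2H2WT replicate 16 highest, and the P2KO and P2WT libraries overlapped. The log2 fold change in the P2 line was -0.084 ± 0.082 (SE), with a 95% interval of -0.27 to 0.10. Rpl34 had a similar estimate of -0.080 ± 0.074. On the other side, Rpl41, which encodes a very short large subunit peptide, had 0.049 ± 0.088, and Rpl36al 0.024 ± 0.072.

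Rpl7l1 (chromosome 17, 46773907 to 46782672, minus strand) had the smallest p of all members in this comparison. Its levels were 90.3, 93.7, 94.005 and 87.3 CPM in P2KO and 84.3, 86.6, 90.5 and 83.97 in P2WT. The lowest P2KO library lay between the P2WT libraries, so the groups overlapped. The log2 fold change was 0.092 ± 0.056, with an interval of -0.034 to 0.22 and an edgeR unadjusted p of 0.133.

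The stalk genes and the genes tied to red cell disorders gave the same picture. Rplp0 was at 1402, 1294, 1086 and 1320.2 CPM in P2KO and 1264, 1367, 1387 and 1308 in P2WT, a log2 fold change of -0.052 with an interval of -0.27 to 0.17. Rps19 was at 198, 188, 158 and 192 CPM in P2KO and 195, 192, 201 and 177 in P2WT, a log2 fold change of -0.046 with an interval of -0.23 to 0.14. In both genes P2KO replicate 6 lay below all controls; in Rplp0, P2KO replicate 1 lay just above them, and the other P2KO libraries lay among them. Rpl5 had a log2 fold change of -0.015 (interval -0.19 to 0.16) and Rpl11 of -0.045 (-0.21 to 0.12). For Rps6 it was -0.058 (-0.22 to 0.11), for Rps3 -0.033 (-0.22 to 0.16) and for Rpsa -0.038 (-0.23 to 0.15).

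**Figure D2:**
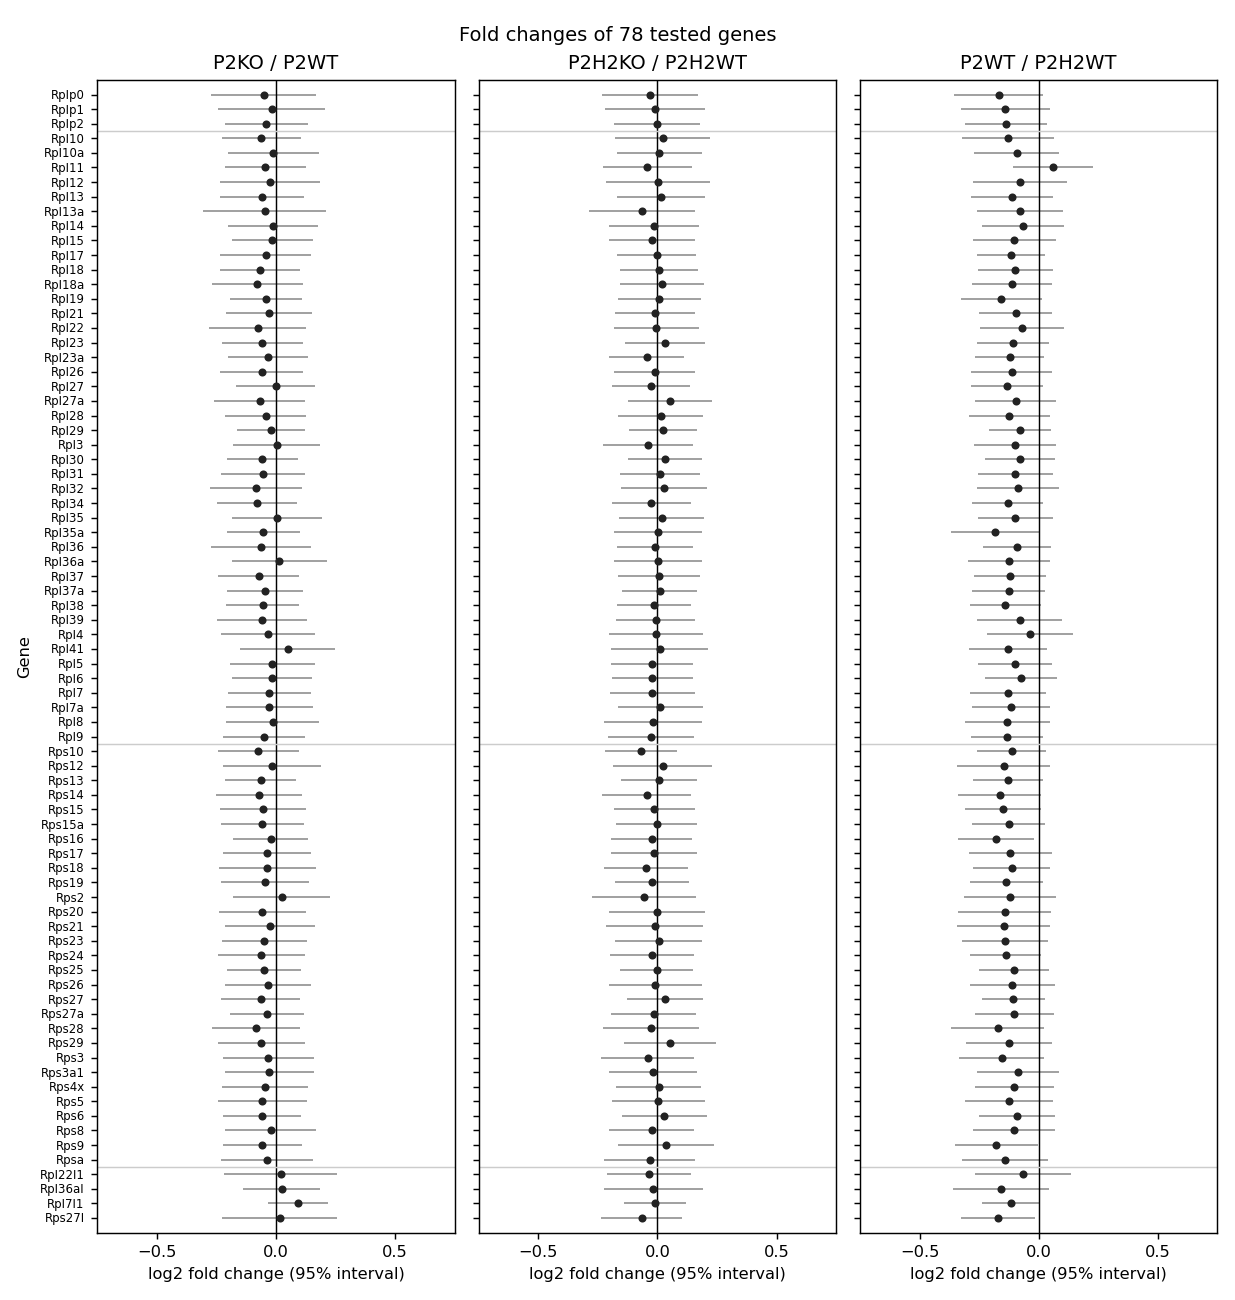
Log2 fold changes (points) with 95% intervals (lines) of 78 of the 80 tested members in 3 comparisons, ordered by role; Rpl3l, with 186 counts in all, is left out for its wide interval. In the first and second comparison all 78 intervals include 0; in the comparison of the controls most points lie to the left of 0 and 3 intervals (Rps16, Rps27l and Rps9) exclude it.

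P2H2KO against P2H2WT compares mice labelled as lacking both PHD2 and HIF2α with the controls of that line. Again 0 of 80 members passed the test by edgeR (0.0744% of 13435 genes did) or by DESeq2, 0 had an unadjusted p under 0.05 (2.63% of all genes), and 0 had groups that did not overlap (0.901% of all genes higher, 0.811% lower). Estimates fell on both sides, 31 above and 49 below 0 (49.5% of all genes below), with a median of -0.0088 against 0.0011 over all genes. The 21 large subunit genes above 0 equalled the 21 below, whereas 20 of 30 small subunit genes were below. The sign of the median rested on single libraries: it was 0.011 without P2H2KO replicate 12, 0.00078 without P2H2KO replicate 15, 0.013 without P2H2WT replicate 13, 0.032 without P2H2WT replicate 16 and -0.050 without P2H2WT replicate 18. Intervals lay within ±0.3 for 79 of 80 members, all but Rpl3l.

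Rps10, at the head of the small subunit, had the smallest p among the genes with an estimate below 0 apart from the sparse Rpl3l. It was at 225, 218, 225 and 225 CPM in P2H2KO and 242, 237, 239.9 and 217 in P2H2WT, so that 3 of the controls were above all P2H2KO libraries and replicate 18 was just below the lowest. The log2 fold change was -0.069 ± 0.067, with an interval of -0.22 to 0.082. Rps29 had the largest estimate above 0 among all members, 0.053 ± 0.086, from 317, 300.1, 308 and 339 CPM in P2H2KO and 312, 289.6, 338 and 278 in P2H2WT. These groups overlapped across most of their range. Rpl27a had 0.052 ± 0.078, Rpl30 0.033 ± 0.069 and Rps27l -0.066 ± 0.075. Rps19 had -0.021 (interval -0.18 to 0.13), Rpl5 -0.023 (-0.20 to 0.15) and Rps6 0.029 (-0.15 to 0.21).

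The difference of the effects, P2KO minus P2WT less P2H2KO minus P2H2WT, asked whether the response of a gene to PHD2 loss depends on HIF2α. No member was called by edgeR or DESeq2, nor was any of the 14080 genes tested by edgeR (0%). No member had an unadjusted p under 0.05, against 1.51% of all genes. The median difference was -0.044 on the log2 scale, 69 of 80 members being below 0 (49.6% of all genes). Without P2KO replicate 6 it turned to 0.018, beside 0.0021 over all genes in that fit. The median of the members was -0.100 without P2KO replicate 1 and -0.0049 without P2H2WT replicate 18. Rpl27a had -0.13 ± 0.11, Rps27 -0.11 ± 0.092 and Rpl7l1 0.090 ± 0.070. Precision was lower than within a line, with 56 of 80 intervals inside ±0.3.

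The control groups of the lines were compared as a gauge of how far the lines differ without any deletion. Line, table and any unlabelled batch cannot be told apart here. Again 0 of 80 members were called by edgeR or DESeq2, while 1.22% of 13593 genes were. Nearly all estimates leaned one way: 78 of 80 were lower in P2WT (53.4% of all genes), with a median of -0.12 against -0.012. Leaving out each library in turn kept 77 to 79 of 80 below 0 and moved the median between -0.083 and -0.16. By role the medians were -0.11 for the large subunit, -0.13 for the small subunit, -0.14 for the stalk and -0.12 for the paralogs. The 2 exceptions were Rpl11 and Rpl3l.

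In 6 members every P2WT library was below every P2H2WT library: Rpl9, Rps9, Rps16, Rps24, Rps27 and Rps27l, 6 of 80 where 2.63% of all genes tested had such groups. No member had all P2WT libraries higher (5.18% of all genes). The members share their libraries, so these 6 are not independent, and the groups came close. The highest P2WT and the lowest P2H2WT library were at 389.2 and 389.6 CPM in Rps24. In Rpl9 they were at 489 and 493 CPM, and in Rps27 at 272 and 276. Rps16 was at 188, 187, 197 and 186 CPM in P2WT and 217, 207, 234 and 197 in P2H2WT, and the 2 groups nearly met at P2WT replicate 7 and P2H2WT replicate 18. Its log2 fold change was -0.18 ± 0.071, with an edgeR unadjusted p of 0.0299 and an adjusted p of 0.372. Rps27l was at 57.7, 54.1, 56.6 and 50.4 CPM in P2WT and 61.6, 57.8, 66.9 and 59.1 in P2H2WT, a log2 fold change of -0.17 ± 0.070. Rps9 was at 714, 703, 773 and 747 CPM in P2WT and 834, 775, 904 and 798 in P2H2WT, a log2 fold change of -0.18 ± 0.078. These 3 had an unadjusted p under 0.05 and lower values in P2WT, where 3.64% of all genes did (11.4% in either direction). That count was 20 with DESeq2 (4.16% of all genes in that fit), 15 with the m or f suffix of the titles as a covariate (5.87%), and 42 without P2H2WT replicate 18 (4.46%). It was 6 without P2WT replicate 7 (3.26%), 5 without P2H2WT replicate 14 (5.96%) and 1 without P2WT replicate 3 (2.34%). It was 0 without P2WT replicate 4 or 10 (3.33% and 5.01% of all genes) or P2H2WT replicate 13 or 16 (2.70% and 2.84%).

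Most of the variation of the members was common to a library. The 84 genes took 2.27% to 3.22% of all counts. In P2KO the shares were 2.98%, 2.88%, 2.27% and 2.96% in replicates 1, 5, 6 and 9, and in P2WT 2.86%, 2.88%, 3.07% and 2.68% in replicates 3, 4, 7 and 10. In P2H2KO they were 3.06%, 2.97%, 2.90% and 2.87% in replicates 11, 12, 15 and 17, and in P2H2WT 3.15%, 2.94%, 3.22% and 2.65% in replicates 13, 14, 16 and 18. One library, P2KO replicate 6, was below all others, and the 4 groups overlapped. Group means were 2.77% ± 0.340 (SD, n = 4) in P2KO, 2.87% ± 0.159 in P2WT, 2.95% ± 0.0838 in P2H2KO and 2.99% ± 0.258 in P2H2WT. In bulk samples, fewer cells of a type and less RNA per cell cannot be told apart.

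**Figure D3:**
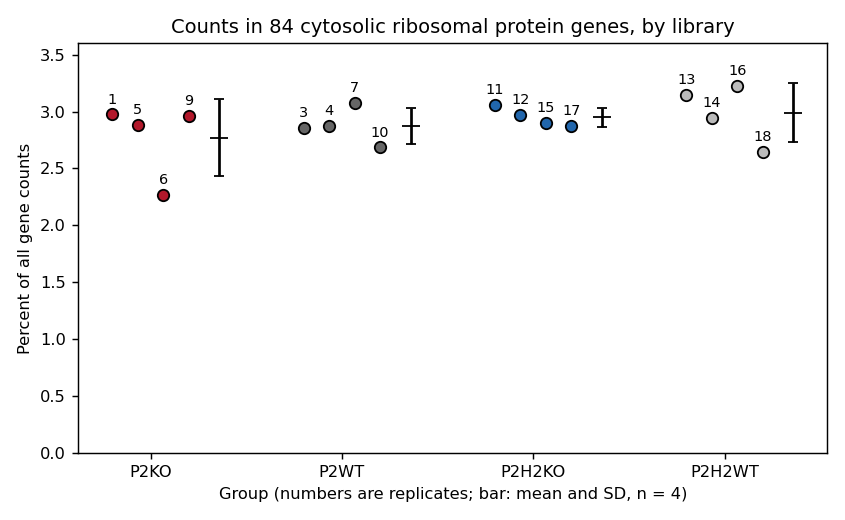
Percent of all gene counts that fell on the 84 members, by library (points, labelled with the replicate) with the mean and SD of each group (bars, n = 4). P2KO replicate 6 lies at 2.27%, below the 15 other libraries at 2.65% to 3.22%.

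P2KO replicate 6 was the lowest library for 77 of the 84 members, among them 42 of the 43 large subunit genes, 29 of the 30 small subunit genes and all 3 stalk genes. P2H2WT replicate 16 was the highest for 54. How many of all genes were lowest in P2KO replicate 6 was not counted. The median deviation of the 80 tested members from their means over 16 libraries was -0.28 on the log2 scale in P2KO replicate 6, and between -0.090 and 0.17 in the 15 other libraries. In P2KO replicate 6 the median deviation was -0.13 for mitochondrial ribosomal protein genes and -0.13 for ribosome biogenesis genes. For translation factor genes it was -0.18, and for genes of translation control 0.047. The median SD of a member over the 16 libraries was 0.11 on the log2 scale, and 0.036 once the median of the members in each library was subtracted; it became smaller in 77 of 80 genes.

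Among the P2KO libraries, the same library stood apart in cell type markers. In P2KO replicate 6 the neutrophil markers summed to 77910 CPM (33293 to 47172 in the other P2KO libraries), the late granule and mature markers to 8371 CPM (2799 to 4660.5), and the erythroid markers to 28338 CPM (44602 to 50492). Cell cycle genes summed to 6183 CPM (7968 to 8438), early granule genes to 3221 CPM (3388 to 4814), and markers of monocytes and macrophages to 3148 CPM (2449 to 3029). Other groups also held libraries with high neutrophil sums. These were 86991 CPM in P2H2KO replicate 17, 70291 in P2H2KO replicate 15, 74081 in P2H2WT replicate 18 and 65661 in P2WT replicate 10. The median deviations of the members in these libraries were 0.096, 0.050, -0.043 and -0.090. Within their groups, P2H2WT replicate 18 and P2WT replicate 10 were lowest by this measure. In P2H2KO, replicate 12 was lowest at 0.024. By share of counts in the members, the library with the highest neutrophil sum was the lowest of its group in every group. These shares were 2.27% in P2KO replicate 6, 2.68% in P2WT replicate 10, 2.87% in P2H2KO replicate 17 and 2.65% in P2H2WT replicate 18. Erythroid markers were lower in P2H2KO replicate 15 than in P2KO replicate 6, at 27828 CPM. The part of cell types in the low ribosomal protein level of P2KO replicate 6 was not tested.

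**Figure D4:**
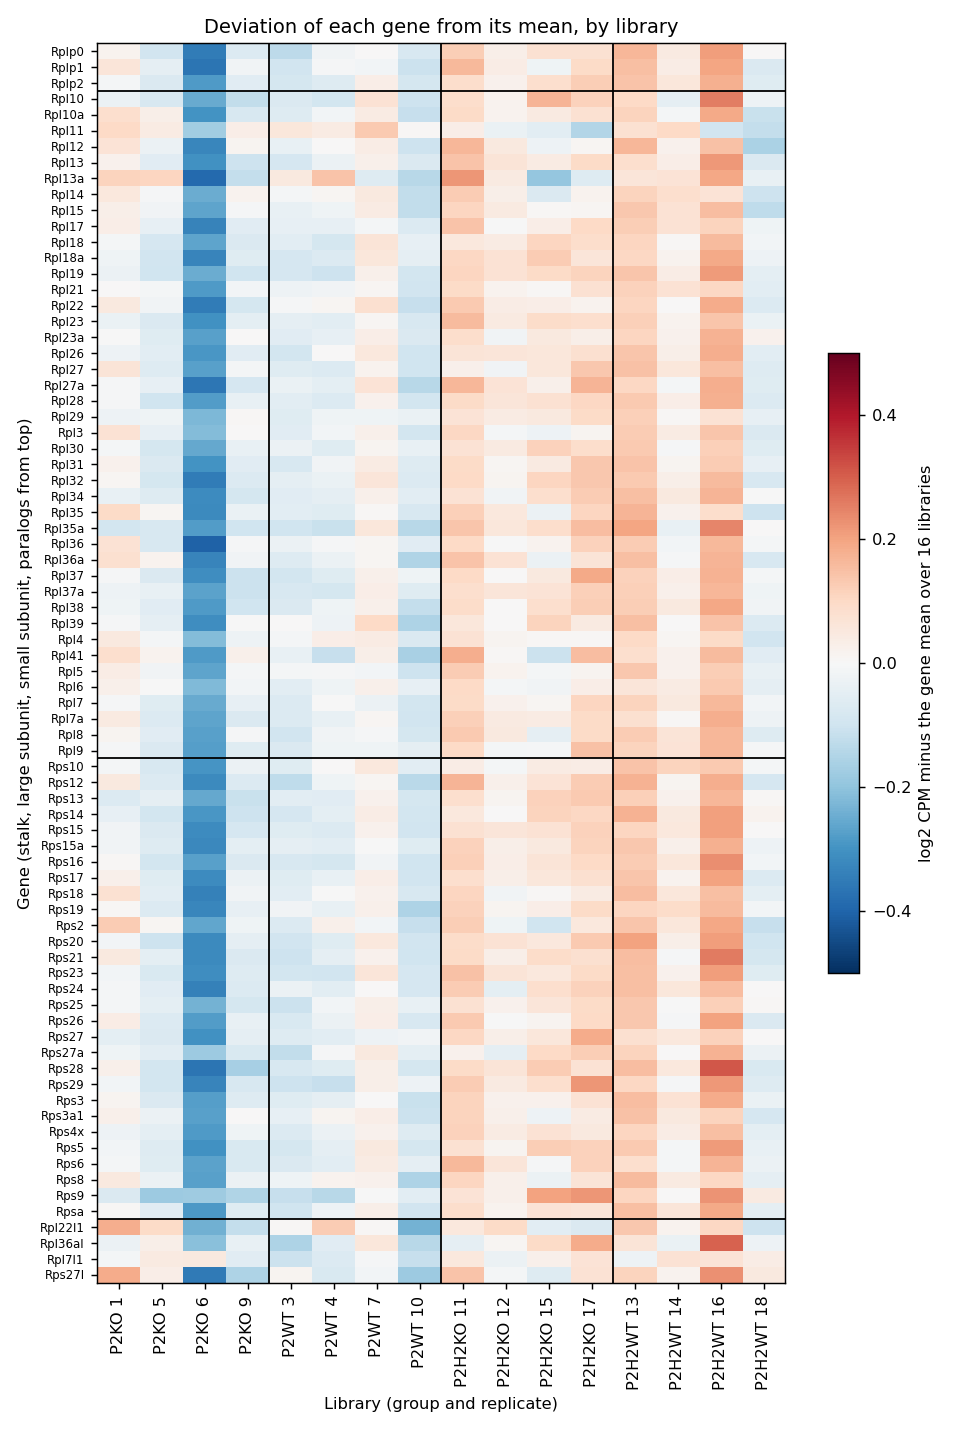
Deviation of log2 CPM from the gene's mean over 16 libraries for 78 of the 79 members with a mean of at least 10 CPM, with genes in rows by role and libraries in columns by group; the colour scale ends at 0.5 in either direction. The column of P2KO replicate 6 is blue in nearly every row, and the columns of P2H2WT replicates 13 and 16 are red in nearly every row. Rpl7l1 departs in P2KO replicate 6 and P2H2WT replicate 13, and Rpl11 in P2H2WT replicate 16.

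A few members departed from this common movement. Rpl7l1 varied least over the libraries in its own level, 83.97 to 95.7 CPM, and P2KO replicate 6 was among its higher values at 94.005 CPM. Set against the median of the members in the same library, Rpl7l1 was 0.14 higher (log2) in P2KO than in P2WT with no overlap of the groups. It was the 1 member of 80 for which this held, where 2.4% of all genes tested had such higher relative levels. The difference was 0.063 without P2KO replicate 6, and 0.13 to 0.18 without any other library of the line. Leaving out a library cannot make separate groups overlap, so these fits do not check the separation. Between P2H2KO and P2H2WT the relative level of Rpl7l1 differed by -0.0063. Between the controls, Rpl4 and Rpl11 had higher relative levels in every P2WT library (8.8% of all genes tested), and Rps3, Rps14 and Rps16 lower ones (0.228%). The median of the members was itself lower in P2WT than in P2H2WT, and in P2KO than in P2WT, so by construction the relative levels of other genes shift up in the group with the lower median, and these shares are not like those of the levels themselves. Rpl22l1 had an SD of 0.10 on the log2 scale after the library median was subtracted, Rpl13a of 0.12, Rps9 of 0.084 and Rps27l of 0.081, against the median of 0.036. Rpl13a was at 45.01, 44.9, 31.8 and 38.4 CPM in P2KO, 43.1, 45.96, 39.9 and 37.8 in P2WT, 48.6, 42.9, 36.4 and 39.8 in P2H2KO and 43.5, 43.7, 47.6 and 40.7 in P2H2WT. P2H2KO replicate 11 was the highest of the 16 libraries, and P2H2KO replicate 15 the lowest after P2KO replicate 6. A predicted gene on the same strand, Gm45713, covers 29.4% of the exon bases of Rpl13a.

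Rpl11 (chromosome 4, 136028265 to 136053428, minus strand) departed from the other members along with a near-identical copy of itself. The pair was picked out after its values were seen. Gm10036, an annotated processed pseudogene on chromosome 18, is 99.3% identical to Rpl11 over 534 bases. Gm10036 was at 1.65, 1.73, 1.62 and 1.96 CPM in P2KO, 1.39, 1.74, 1.94 and 1.51 in P2WT, 21.7, 21.7, 22.1 and 40.9 in P2H2KO and 23.9, 1.59, 43.01 and 20.6 in P2H2WT. The values fell into 3 separate sets: 9 libraries at 1.39 to 1.96 CPM, which were all 8 of the P2 line and P2H2WT replicate 14; 5 libraries of the P2H2 line at 20.6 to 23.9; and P2H2KO replicate 17 and P2H2WT replicate 16 at 40.9 and 43.01. Both genotypes of the P2H2 line thus held libraries of the middle and the high set.

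Rpl11 itself was at 338, 324, 279 and 322 CPM in P2KO, 328, 325, 345 and 316 in P2WT, 322, 308, 304 and 285 in P2H2KO and 332, 337, 295 and 290.2 in P2H2WT. Relative to the median of the members in the same library, it was 0.070 to 0.12 above (log2) in the 9 libraries with the least Gm10036. It was -0.10 to -0.049 in the 5 libraries of the middle set, and -0.24 and -0.26 in the 2 libraries with the most. With the counts of both genes summed, the deviations were 0.018 to 0.064, -0.061 to -0.0081, and -0.11 and -0.13. Reads that match both genes may have been counted for either or dropped; how this was done is not given in the sources used here, and its part in the pattern was not tested.

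**Figure D5:**
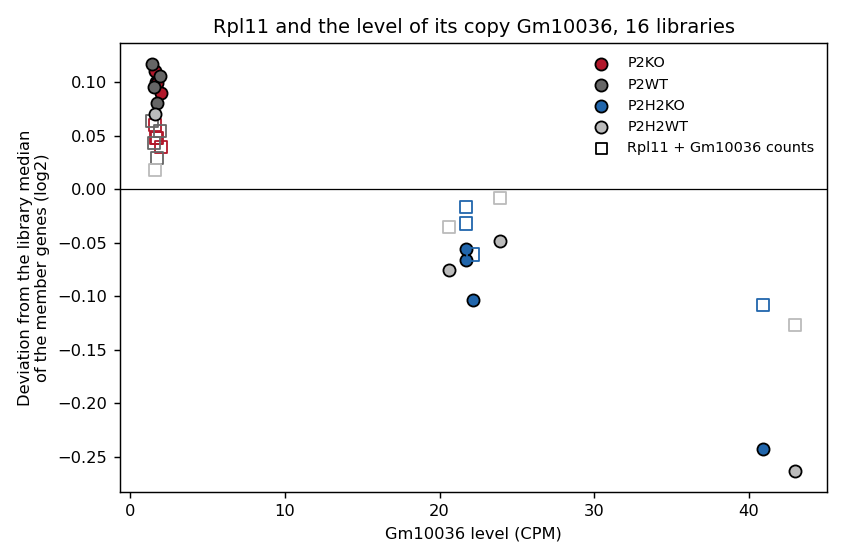
Deviation of Rpl11 from the median of the members in the same library (log2, filled circles) against the level of its copy Gm10036 (CPM) in 16 libraries, with the summed counts of both genes as open squares. The libraries form 3 sets, and Rpl11 lies above 0 in the first and below 0 in the other 2.

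In the tests, Gm10036 was the only one of the 66 copies tested that was called in the comparison of the controls, with a log2 fold change of -3.77 ± 0.75 and an edgeR adjusted p of 0.0448. That call was near the threshold and was lost without any 1 of P2WT replicates 3, 4, 7 or 10 or P2H2WT replicates 13, 16 or 18, with edgeR adjusted p-values of 0.0859 to 0.208. Without P2H2WT replicate 14, the P2H2WT library with little Gm10036, the log2 fold change was -4.16 and the adjusted p 0.00048. The call was also lost with upper-quartile factors (0.0604), with no filter beyond 1 count (0.294), with at least 10 counts in every library (0.0634) and with the m or f suffix as a covariate (0.0520), and it held with DESeq2 (0.000293). The log2 fold change was below 0 in all of these fits. No copy was called in the other 3 comparisons, where 63, 65 and 75 were tested. Gm10036 did not pass in P2H2KO against P2H2WT (0.25 ± 0.66). Rpl11 was 1 of the 2 members with a higher estimate in P2WT than in P2H2WT, 0.061 ± 0.075, and with the counts of all its copies added this became -0.031, on the side of the other members.

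Genes that work with ribosomal proteins were counted from lists set by name. None of the 77 tested mitochondrial ribosomal protein genes, 58 ribosome biogenesis genes, 39 translation factor genes, and 25 genes of translation control was called by edgeR in any of the 4 comparisons, and neither were Fau and Rack1, ribosome genes with other names. In P2KO against P2WT the medians were 0.0097 for mitochondrial ribosomal proteins, 0.034 for biogenesis, 0.018 for translation factors and 0.028 for translation control, beside -0.044 for the cytosolic ribosomal proteins and 0.020 for all genes. In P2H2KO against P2H2WT they were -0.043, -0.026, -0.035 and 0.035. In P2WT against P2H2WT they were -0.090, -0.019, -0.094 and 0.093, beside -0.12 for the cytosolic ribosomal proteins.

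Fau, which encodes the small subunit protein eS30 fused to a ubiquitin-like part, was at 244 to 329 CPM, with log2 fold changes of -0.053 ± 0.064 in the P2 line and 0.042 ± 0.086 in the P2H2 line. Rack1, a scaffold protein on the small subunit, was at 839 to 1203 CPM. Mrpl54, of the mitochondrial large subunit, had the smallest p of its list in the P2 line. It was at 18.1, 18.3, 16.3 and 18.8 CPM in P2KO and 15.2, 15.4, 15.5 and 14.7 in P2WT, so every P2KO library was above every control, and its log2 fold change was 0.25 ± 0.066 with an edgeR unadjusted p of 0.00454 and an adjusted p of 1. In the P2H2 line its estimate was 0.18 ± 0.10, with P2H2WT replicate 16 above all P2H2KO libraries. Pdcd4, an inhibitor of the initiation factor eIF4A, was at 83.1, 79.4, 63.2 and 79.7 CPM in P2KO and 83.4, 91.2, 95.1 and 87.2 in P2WT. The highest P2KO library lay just below the lowest control, and the log2 fold change was -0.21 ± 0.088 with an adjusted p of 1. It was -0.13 without P2KO replicate 6, the lowest library. Larp1, which binds TOP messenger RNAs, was at 220.2, 212, 217 and 202 CPM in P2WT and 173, 192, 170.2 and 189.7 in P2H2WT, where the P2WT libraries were all higher. Its log2 fold change of 0.23 ± 0.064 had an adjusted p of 0.168 with edgeR and 0.0172 with DESeq2. Tcof1, a nucleolar factor of ribosomal RNA transcription, had 0.32 ± 0.081, with adjusted p-values of 0.115 and 0.0233.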

How the data were processed

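RNA sequencing counts of 16 mouse libraries in 4 groups of 4 were used. The authors deposited 2 tables of raw counts per Ensembl gene, 8 libraries each and 49585 genes, with no normalization applied, per the file headers and the whole-number values. The submitters' processing notes name HTSeq and the build mm10; the aligner, the annotation release and the strand setting are not given in the sources used here. The counting of reads shared by a member and its copies is therefore unknown. No column was left unused. Groups came from the library titles. Whether libraries of a group are separate mice is not stated, so p-values measure the spread between libraries.

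Symbols, gene types, coordinates and principal transcripts came from GENCODE M21. In edgeR 4.0.16 (R 4.3.3), genes were filtered with filterByExpr, scaled by TMM, fitted with robust glmQLFit and tested two-sided with glmQLFTest, with Benjamini-Hochberg adjustment over all genes tested and a threshold of 0.05. Each line and the controls were fitted with their own 8 libraries, and the difference of the effects with all 16. SEs and 95% intervals came from the F statistic and its degrees of freedom, and the procedure was tested on simulated data. CPM values were computed here from the deposited counts with TMM factors of all 16 libraries. Copies were found with blastn 2.17.0 on the transcripts. Alternatives were other size factors, other filters, DESeq2 1.42.0, the title suffix as a covariate, leaving out each library, and, chosen after seeing the data, adding the counts of copies and other lengths.

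The members and lists were chosen with earlier results of these data known. The genes named were the 3 members with the smallest p in each direction per comparison, the 5 highest and lowest per kilobase, genes of set roles, paralog pairs, and up to 2 genes per other list; Rpl13a beyond its level, Rpl4, Rpl9, Rps14, Rps24 and Gm10036 were named after their values were seen. Some genes that the rule names are not reported here one by one and were left out of the figures; counts and medians over the members include them.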

Additional observations from a re-analysis of the deposited data

Results flagged for a closer look

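In each group of 4 libraries, a library was picked out when the gap between it and its nearest neighbour took a larger part of the range of the group than Dixon's 95% critical value. Chance does so in about 1 group in 20. Over the 79 members with at least 1 CPM and the 4 groups, 18 of 316 sets of values met this, of which 10 were due to P2KO replicate 6, 4 to P2WT replicate 7, 2 to P2H2KO replicate 11 and 1 each to P2WT replicate 10 and P2H2KO replicate 12. The members share their libraries, so these are not independent.

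The share of counts in the 84 genes was low in P2KO replicate 6, at 2.27% with a gap of 0.869 of the range. In that library Rpl39 stood apart at 93.7 CPM with a gap of 0.839, Rps27 at 223 CPM with 0.894, and Rps4x at 503 CPM with 0.891; all 3 were low. P2WT replicate 7 was high for Rpl10 at 328 CPM with a gap of 0.837 and for Rpl34 at 265 CPM with 0.891. P2WT replicate 10 was low for Rpl5 at 325 CPM with 0.900. In P2H2KO, replicate 11 was high for Rpl22 at 242 CPM with 0.833, and replicate 12 low for Rps10 at 218 CPM with 0.922.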

How the results depend on the processing

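The count of called members stayed at 0 in all 4 comparisons under every alternative run: 2 other size factors, TMM factors without the members, 2 other filters, DESeq2, the m or f suffix as a covariate, counts of copies added, and each library left out. No paired analysis was possible because no replicate number is shared between groups. The mean share of counts in P2H2KO was 3.09% over protein-coding genes without haemoglobin genes, against 2.95% over all genes; the change of denominator moves all groups. The ratio of the highest to the lowest level per kilobase was 78.8 with exon lengths of all isoforms. Estimates near 0 changed sign, none of them called. Adding copies turned Rpl11 in P2WT against P2H2WT to -0.031. With the suffix as a covariate, Fau in the P2H2 line was at -0.0054 and Rpl3l between the controls at -0.030. Leaving out single libraries in P2KO against P2WT gave log2 fold changes from -0.0054 to 0.072 for Rpl36al. For P2H2KO against P2H2WT the ranges were -0.0058 to 0.063 for Rpl30, -0.0045 to 0.081 for Fau and -0.068 to 0.010 for Rack1. For the difference of the effects it was -0.0052 to 0.14 for Rps2, and between the controls -0.17 to 0.19 for Rpl3l. The causes were not tested. Depth limits what can be said of Rpl3l, Rpl24, Rpl39l, Rps27rt and Rpl10l, which had 0 to 186 counts over all libraries.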
